A study of Mus musculus with 4 samples.

Results

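The Igf2r and Airn genes form an imprinted cluster on mouse chromosome 17, where the copy a gene was inherited from decides whether it is used. CpG methylation was measured there by ERRBS, a bisulfite sequencing method for CpG-rich DNA, in the whole livers of 4 male mice aged 6 to 8 weeks and fed a normal diet. The mice B6-1 and B6-2 were inbred C57BL/6, and Mixed-1 and Mixed-2 were of a mixed origin, part C57BL/6J and otherwise not defined. The labels name no treatment. The strains were kept at different institutions, and housing and strain effects cannot be told apart. Where 4 values follow each other they are those of Mixed-1, Mixed-2, then B6-1, then B6-2. The locus was taken as the RefSeq bodies of both genes plus 5000 bp on each side, chr17:12677406-12864884 on GRCm38/mm10, and it was chosen by the unusual spread of its methylation between the mice. Of the 1276684 CpG cytosines with at least 10 reads in all 4 mice, here called common cytosines, 83 lay in the locus. The methylation levels and their spread between mice below are therefore a description.

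Igf2r encodes the cation-independent mannose 6-phosphate receptor, which carries lysosomal enzymes to the lysosome and removes the growth factor Igf2 from the cell surface. Airn is a long non-coding RNA that starts inside Igf2r and runs in the opposite direction across its promoter. In most mouse tissues Airn is transcribed from the paternal copy and silences Igf2r on that copy, and in the placenta it also silences the neighbouring transporter genes Slc22a2 and Slc22a3. On the maternal copy the start region of Airn carries DNA methylation laid down in the egg, Airn is off and Igf2r is on. The promoter of Igf2r is in turn methylated on the silent paternal copy. A bulk bisulfite library mixes both copies and all cell types of the liver, so a change in the methylation of 1 copy and a change in the makeup of the sample cannot be told apart. ERRBS also does not separate methylcytosine from hydroxymethylcytosine.

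Igf2r (gene 16004, minus strand) spanned chr17:12682406-12769706 and Airn (gene 104103, plus strand) chr17:12741311-12859884, with 28396 bp in common. The region described most closely was a 981 bp interval at the start of Airn, chr17:12741441-12742421. It began just after the first exon of Airn (chr17:12741311-12741424) and lay within the second intron of Igf2r, between exon 3 (chr17:12740282-12740406) and exon 2 (chr17:12748644-12748783). All 25 common cytosines of the interval were intronic in both genes. The interval had a GC content of 63.2%, 77 CpGs and 5 copies of CCGG, which reads the same on both strands and is where the enzyme MspI cuts. ERRBS reads start at such cuts and were 50 bases long, and the libraries were selected by fragment size. With at least 10 reads required in every mouse, 20 of the 77 CpGs were measured, on 3 MspI fragments. These fragments are shown because every value of the interval comes from them. They are written on the plus strand of the GRCm38.p6 RefSeq genome, and capitals mark the CpGs with a common cytosine on at least 1 strand.
Airn fragment 1, 161 bp, chr17:12741590-12741750: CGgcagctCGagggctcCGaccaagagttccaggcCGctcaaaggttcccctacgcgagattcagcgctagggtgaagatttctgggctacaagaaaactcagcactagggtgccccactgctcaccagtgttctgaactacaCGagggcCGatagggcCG
Airn fragment 2, 142 bp, chr17:12742236-12742377: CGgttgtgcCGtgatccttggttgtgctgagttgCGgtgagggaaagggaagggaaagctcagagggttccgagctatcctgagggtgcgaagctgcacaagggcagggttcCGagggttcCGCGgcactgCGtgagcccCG
Airn fragment 3, 46 bp, chr17:12742376-12742421: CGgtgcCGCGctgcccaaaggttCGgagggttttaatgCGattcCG
The measured CpGs sat at the ends of fragments 1 and 2, and the centre of each fragment was not reached. Fragment 3 was short enough for reads from both ends to cross all 6 of its CpGs.

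The sequence around the transcription start of Airn itself was of another kind. The window around the start given by RefSeq (chr17:12741061-12741360, plus strand, capitals for CpGs) had 3 CpGs, a GC content of 45.7% and no CCGG, a motif found in 52.8% of the 32851 mouse promoters of this length.
Airn start: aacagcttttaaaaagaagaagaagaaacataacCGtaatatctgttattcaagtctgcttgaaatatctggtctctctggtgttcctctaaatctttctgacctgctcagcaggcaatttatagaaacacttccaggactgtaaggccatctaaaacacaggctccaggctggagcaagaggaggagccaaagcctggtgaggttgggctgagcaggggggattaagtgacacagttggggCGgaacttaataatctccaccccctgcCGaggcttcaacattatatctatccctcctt
The same window at Igf2r had 34 CpGs, 3 copies of CCGG and a GC content of 70.7%. Its 150 bases upstream of the start (chr17:12769707-12769856, written 5′ to 3′ on the minus strand, capitals for the CpGs with a common cytosine) are shown because reads from both directions met there.
Igf2r upstream: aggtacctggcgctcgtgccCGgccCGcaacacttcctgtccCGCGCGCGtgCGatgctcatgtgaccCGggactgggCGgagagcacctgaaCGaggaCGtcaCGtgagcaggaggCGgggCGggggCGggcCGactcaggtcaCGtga
No common cytosine was found between the start of Airn and the first MspI site of the interval, at 279 bp, and none in the flanks of the locus.

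Methylation was intermediate at both start regions and high at most common cytosines in the rest of the gene bodies. The level of a region was the mean, over its cytosines, of the percentage of reads that were methylated. Over the 25 cytosines of the Airn interval it was 46.2% and 50.6% in the Mixed mice and 33.8% and 39.0% in the B6 mice, with a mean of 42.4% ± 7.47 (SD, n = 4). All 25 had a mean over the mice of 20 to 80%, between 35.9% and 48.0%. Over the 44 cytosines within 1000 bp of the Igf2r start, here called the Igf2r promoter, the level was 39.8% and 36.7% in the Mixed mice and 29.1% and 33.4% in the B6 mice, with a mean of 34.7% ± 4.56 (SD, n = 4). In both regions the Mixed mice stood above the B6 mice and B6-1 was the lowest. Single strands did not all keep this order. The 27 plus-strand cytosines of the promoter averaged 33.1%, 33.6%, 27.1% and 33.1%, with B6-2 level with Mixed-1. The 17 minus-strand ones averaged 50.3%, 41.5%, 32.2% and 34.0%. On the minus strand of the interval the levels were 43.7%, 51.4%, 35.4% and 46.1%, with B6-2 above Mixed-1.

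Away from the start regions the few common cytosines were mostly methylated. The 8 cytosines in the rest of the Igf2r body, at -50372 to -31652 bp from the start of Airn, averaged 96.3% and 94.0% in the Mixed mice and 92.2% and 96.0% in the B6 mice. The single common cytosine in the rest of the Airn body, 91629 bp inside the gene, stood at 89.5%, 91.7%, 77.8% and 93.8% in the same order of mice, from 12 to 48 reads. In the 28396 bp where the genes overlap, 5 cytosines outside the start regions averaged 59.3%, 59.4%, 62.2% and 64.5%. These 5 were far from uniform, with means over the mice of 19.7% to 86.6% on 2 neighbouring read ends. The lowest of them was the same in all 4 mice: it was the first base of its reads and stood at 17.4% and 18.5% in the Mixed mice and 23.7% and 19.4% in the B6 mice. The nearest common cytosines outside the interval were 31782 bp away on the 3′ side of Igf2r, at 95.2%, 83.3%, 80.9% and 92.9%, and 8862 bp away inside Airn, at 54.5%, 48.9%, 55.8% and 61.4%. The borders of the intermediate level at the start of Airn were thus not resolved.

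**Figure D1:**
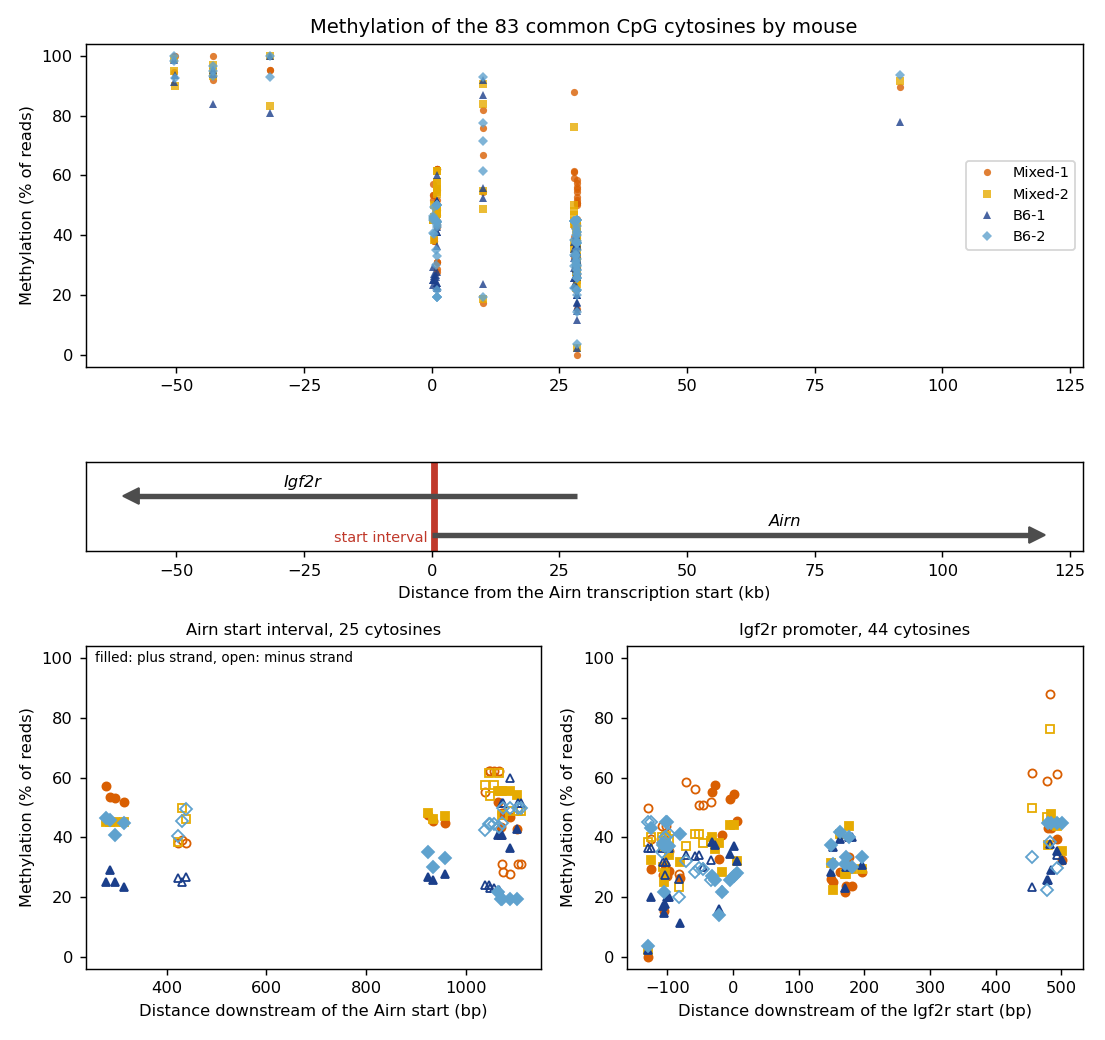
Methylation (% of reads) of the 83 common cytosines against distance from the start of Airn in kb (top), the gene bodies with arrows in the direction of transcription (middle), and the Airn interval and the Igf2r promoter enlarged, in bp downstream of each start with plus strand filled and minus strand open (bottom). Each symbol is 1 cytosine in 1 mouse; the regional means of 33.8 to 50.6% at the Airn interval and 29.1 to 39.8% at the Igf2r promoter stand below the 92.2 to 96.3% of the rest of the Igf2r body.

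The Airn interval was on average more methylated than the Igf2r promoter of the same mouse. The difference was 6.41 and 14.0 percentage points in the Mixed mice and 4.72 and 5.56 in the B6 mice, a mean of 7.66 ± 4.26 (SD, n = 4) and positive in 4 of 4 mice. In the two-sided exact sign-flip permutation test over the 4 mice, 2 of the 16 sign assignments were as extreme (p = 0.12), the smallest p it can give, so this difference did not reach a threshold of 0.05. In B6-1 the sign was not stable: its difference was -0.0593 with reads pooled over the cytosines and -2.96 with the window on the Airn start in place of the interval. The choice of the locus by its spread between mice did not use this contrast.

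The spread between mice was what chose the locus. The interval had a range of 16.8 points between its highest and lowest mouse, and the Igf2r promoter one of 10.7 points. The Mixed mice averaged 48.4% ± 3.17 and the B6 mice 36.4% ± 3.66 at the interval (SD, n = 2 each), 12 points apart. At the promoter the values were 38.2% ± 2.18 and 31.3% ± 3.07, a B6 minus Mixed difference of -6.95 points. Of the 83 cytosines, 28 had a range over the mice of at least 25 points, 15 in the interval and 13 in the promoter, against 4.36% of all common cytosines and 27.8% of the 148813 with a mean of 20 to 80%. All 28 were among the 69 of the locus in that middle band, where the median range was 21.3 points against 18.9 points over the whole band.

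Cytosine by cytosine, the strains did not separate cleanly. Both Mixed mice stood above both B6 mice at 14 of the 25 cytosines of the interval and at 15 of the 44 of the promoter, an order found at 20.2% of the common cytosines of the middle band. Both B6 mice stood above both Mixed mice at 4 in each region, an order found at 15.1% of that band. A logistic model on the methylated and unmethylated reads of each cytosine, fitted over all common cytosines with limma's moderation, called a strain difference at 0 of the 83 cytosines (Benjamini-Hochberg adjusted p under 0.01 and at least 25 points), against 84 or 0.00658% of all, a count that fell to 0 when the moderation took its prior from all common cytosines in place of those at 20 to 80%. Before adjustment 15 of the 83 had p under 0.05, against 2.07% of all common cytosines and 5.79% of the middle band. After adjustment the lowest adjusted p of the 83 was 1. Fisher's exact test on the pooled reads of each strain, which leaves out the spread between mice, called 1 of the 83, against 0.126% of all. These counts describe values that entered the choice of the locus.

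The order of the mice changed along the interval. Cytosines read from the same end of an MspI fragment share their reads and are not independent, so the 25 cytosines amount to 6 read ends. Within an end the cytosines of a mouse were nearly equal, with a median SD of 1.97 and 0.832 points in the Mixed mice and 1.69 and 2.42 in the B6 mice. Between the 6 ends of the same mouse the SD was 10.9, 5.70, 11.8 and 11 points. The spread between ends in 1 mouse was larger than that within an end. The spread within an end is small where cytosines share reads, so it does not measure the counting error between ends. The part of counting error in the spread between ends was not tested. The range over the mice at an end was 19 to 37.4 points. Over the 6 ends the mice took 5 different orders. B6-1 was lowest at 4 ends, B6-2 at 1 and Mixed-1 at 1, and the B6 mean was below the Mixed mean at 5 of 6.

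On fragment 1, 279 to 439 bp inside Airn, B6-1 was the lowest mouse on both strands. The 4 plus-strand cytosines averaged 53.9% and 45.0% in the Mixed mice and 25.6% and 44.5% in the B6 mice, and the 3 minus-strand cytosines 38.4%, 44.9%, 26.1% and 45.1%. Here B6-2 was level with Mixed-2 on both strands, and the strains overlapped. For the plus-strand end the 95% Wilson intervals of 1 cytosine, which cover counting error only since PCR copies are not independent molecules, ran from 36.1 to 69.8% in Mixed-1 (30 reads), 25.8 to 65.8% in Mixed-2 (20 reads), 14.9 to 38.8% in B6-1 (48 reads) and 34.8 to 57.3% in B6-2 (72 reads). The interval of B6-1 overlapped those of all the other mice.

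Fragment 2, which ended 1066 bp inside Airn, held the widest spread. Its 3 plus-strand cytosines averaged 45.9% and 47.1% in the Mixed mice and 26.8% and 32.8% in the B6 mice, so both Mixed mice were above both B6 mice. Its 5 minus-strand cytosines averaged 60.7%, 58.5%, 23.3% and 43.9%, with B6-1 far below and B6-2 nearer to the Mixed mice. The 3 cytosines with the largest range in the interval were all on this end. At chr17:12742377 the level was 62.1% and 61.5% in the Mixed mice and 22.3% and 43.5% in the B6 mice, a range of 39.7 points, and at chr17:12742360 and chr17:12742368 the range was 39.1 points at each. At chr17:12742349, on the same end, the Wilson intervals were 37.5 to 71.6%, 38.9 to 74.5% and 16.7 to 33.2% for Mixed-1, Mixed-2 and B6-1, from 29, 26 and 100 reads, and B6-1 lay below both Mixed mice. The interval of B6-2 at this end, 32.8 to 56.7% from 63 reads at chr17:12742358, overlapped those of both Mixed mice and that of B6-1.

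Fragment 3 reversed part of this order within 46 bp. Its 5 plus-strand cytosines averaged 46.6% and 55.3% in the Mixed mice and 40.4% and 19.7% in the B6 mice, and B6-2 was the lowest mouse. The Wilson interval of B6-2 there, 8.51 to 37.9% from 26 reads, lay below that of Mixed-2, 39.6 to 70.5% from 36 reads. It overlapped those of Mixed-1 and B6-1. On its minus strand, 5 cytosines averaged 29.9%, 48.3%, 53.1% and 49.0%, so B6-1 was the highest mouse and Mixed-1 the lowest. Their Wilson intervals on that strand overlapped, at 35.6 to 67.0% in B6-1 (35 reads) and 17.3 to 49.2% in Mixed-1 (29 reads). At the outermost cytosine of the interval, chr17:12742421, the level was 31.0% and 48.8% in the Mixed mice and 51.4% and 50.0% in the B6 mice. At the first one, chr17:12741590, it was 57.1%, 45.0%, 25% and 46.5%. The highest mouse at the first cytosine, Mixed-1, was the lowest at the last, and B6-1 went the other way.

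**Figure D2:**
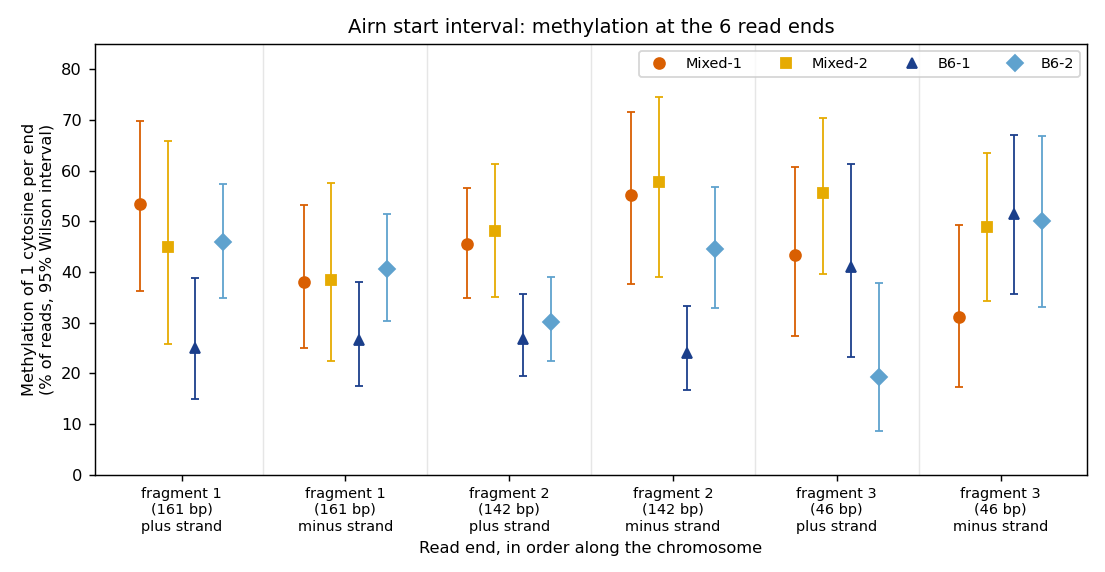
Methylation (% of reads) at the 6 read ends of the Airn interval in the 4 mice, in order along the chromosome. Each symbol is the best covered cytosine of the end in 1 mouse, and bars are 95% Wilson intervals on its reads; B6-1 is lowest at the first 4 ends, at 24.0 to 26.8%, and highest at the last, at 51.4%.

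The 3 smallest ranges in the interval were 14.0 points at chr17:12741734 on the minus strand of fragment 1, and 19.3 and 20.3 points at chr17:12742270 and chr17:12742245 on the plus strand of fragment 2. At the first of these the mice stood at 38.1%, 38.5%, 26.5% and 40.5%, and B6-1 was again the lowest.

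Both strands of the same CpG could be compared at 5 CpGs of the interval, all with the plus strand read from fragment 3. At the first, chr17:12742376-12742377, the minus strand was assigned to the read end of fragment 2. There the plus strand minus the minus strand was -10.3, -5.98, 18.6 and -21.8 points. A CpG is a palindrome whose strands normally carry the same methylation, and its strands were read here in separate reads. In B6-2 the plus strand was below the minus strand at all 5, with a median difference of -30.8 points, while in Mixed-1 the median was 12.3 points, in Mixed-2 6.78 and in B6-1 -10.5. At the CpG at chr17:12742384-12742385 the plus and minus strands stood at 48.3% and 28.6% for Mixed-1, 55.6% and 47.5% for Mixed-2, 40.9% and 51.4% for B6-1, and 19.2% and 50.0% for B6-2. At the plus-strand cytosine of this CpG the range over the mice was 36.3 points. Over all plus-strand cytosines of the interval the B6 minus Mixed difference was -17.7 points, and over the minus-strand ones -6.77 points. The number of molecules behind these reads was not known, and its part in the spread was not tested.

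**Figure D3:**
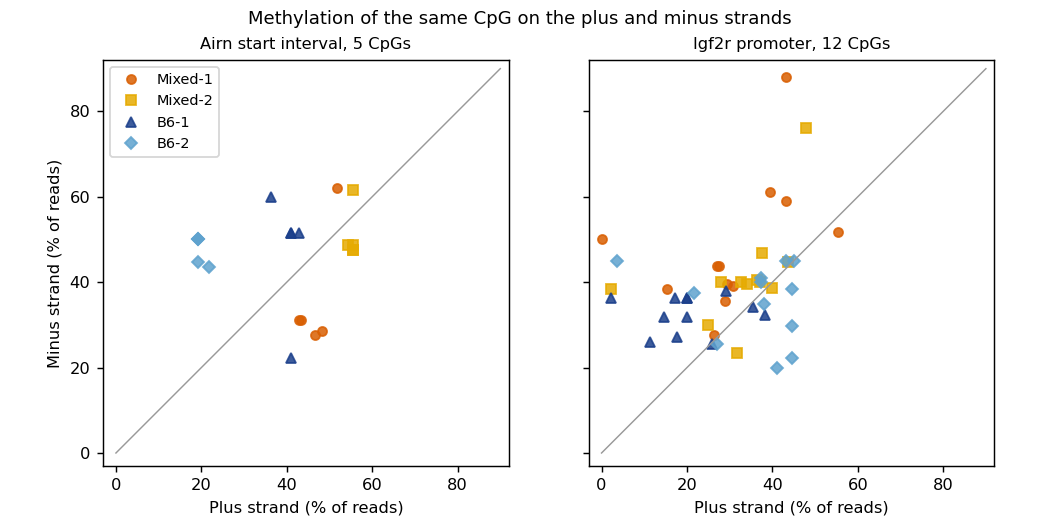
Methylation (% of reads) of CpGs read on both strands, with the plus strand on the x axis and the minus strand on the y axis, for 5 CpGs of the Airn interval and 12 of the Igf2r promoter. Each symbol is 1 CpG in 1 mouse and the line marks equal levels; in the left panel B6-2 lies above the line at all 5 CpGs and Mixed-1 below it at 4 of them.

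At the Igf2r promoter the mice also changed order from end to end. Its common cytosines were read from 7 ends of 4 fragments, plus 1 cytosine described on its own. The median SD within an end was 5.11 and 5.82 points in the Mixed mice and 4.16 and 4.46 in the B6 mice, wider than at Airn, and the SD over ends was 14.3, 7.68, 5.68 and 7.37 points. The mice took 5 orders over the 7 ends, with the B6 mean below the Mixed mean at 6. Mixed-1 was highest at 4 ends and B6-2 at 3, and B6-1 was lowest at 4.

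The end nearest the transcription start had Mixed-1 as the highest mouse. On the 89 bp fragment that crosses the start, 7 plus-strand cytosines averaged 48.4% and 37.5% in the Mixed mice and 31.1% and 24.2% in the B6 mice. The 6 minus-strand cytosines of the fragment averaged 49.3%, 36.6%, 31.8% and 27.6%, the same order of mice on the other strand. The next fragment upstream, of 50 bp, did not keep it: its plus strand averaged 26.5%, 32.1%, 17.3% and 37.6%, and its minus strand 41.5%, 38.4%, 33.8% and 41.2%. There B6-2 went from the lowest mouse to the highest on the plus strand, and on the minus strand the range was 7.69 points.

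Downstream of the start, in exon 1, 8 plus-strand cytosines averaged 26.4% and 31.6% in the Mixed mice and 33.6% and 34.8% in the B6 mice. This was the only one of the 7 ends with the B6 mean above the Mixed mean. In intron 1, on a fragment of 47 bp (chr17:12769205-12769251), the plus strand averaged 39.6%, 41.1%, 30.6% and 44.7%, and the minus strand 67.4%, 54.5%, 30.2% and 30.9%. On its minus strand both Mixed mice were above both B6 mice, while on its plus strand they were not.
Igf2r intron 1 fragment, plus strand, GRCm38.p6, capitals for CpGs with a common cytosine: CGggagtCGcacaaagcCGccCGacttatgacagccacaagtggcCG
The 1 cytosine called by Fisher's exact test lay on this fragment, at chr17:12769223 on the minus strand, and is named after its values were seen. It stood at 88.0% and 76.2% in the Mixed mice and 37.8% and 38.5% in the B6 mice, a B6 minus Mixed difference of -43.9 points (Fisher's exact test on pooled reads, adjusted p = 0.00246), and the logistic model gave it an adjusted p of 1. Its coverage was 25, 21, 37 and 26 reads, against 39, 32, 43 and 27 at chr17:12769227 on the same end, so in the Mixed mice it lacked reads that its neighbour had. The plus-strand cytosine of the same CpG stood at 43.2%, 47.9%, 29.0% and 44.7%. The deposited values give only the percent of reads that were C and T, so whether reads with another base were left out of the coverage was not known. The cause of the missing reads was not tested.

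**Figure D4:**
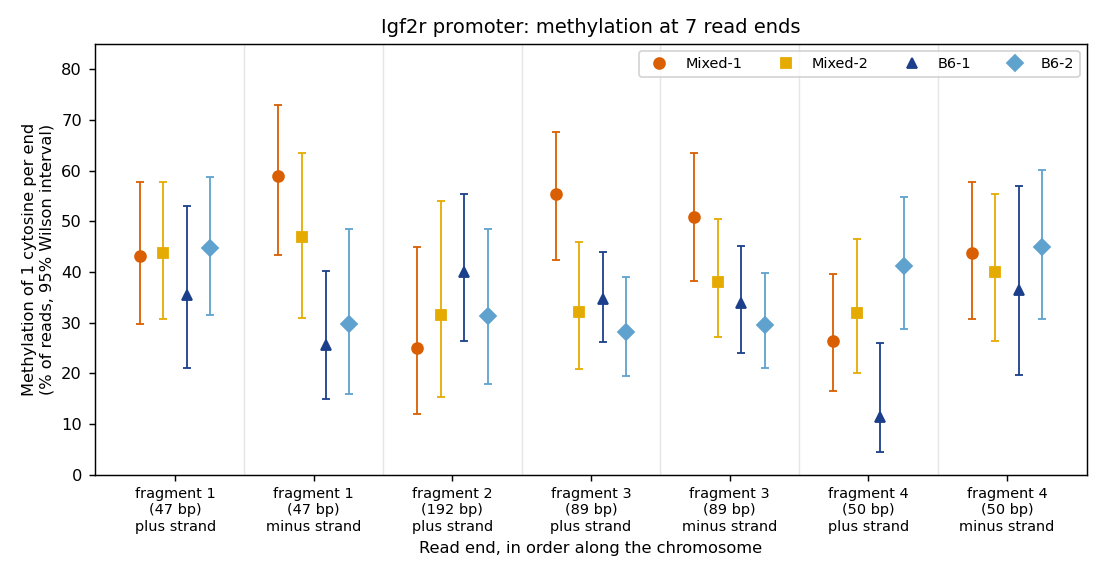
Methylation (% of reads) at 7 read ends of the Igf2r promoter in the 4 mice, in order along the chromosome from intron 1 to upstream of the start. Each symbol is the best covered cytosine of the end in 1 mouse with its 95% Wilson interval; Mixed-1 is the highest mouse at the minus-strand end of fragment 1, at 59.0%, and at both ends of fragment 3, at 55.4% and 50.9%.

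A single cytosine of the promoter was nearly unmethylated. At chr17:12769835 on the plus strand, at -129 bp from the Igf2r start, the level was 0% and 2.27% in the Mixed mice and 2.17% and 3.51% in the B6 mice, from 55, 44, 46 and 57 reads. The Wilson interval of the 0% reached 6.53%. The opposite strand of this CpG, the first cytosine of its own reads, stood at 50.0%, 38.5%, 36.4% and 45.0%. The plus-strand cytosine lies in the CCGG at the far end of a fragment as long as a read, where end repair fills in the base during library preparation. The part of this step in the low level was not tested. In all, 5 cytosines of the promoter and 1 of the interval lay in a CCGG with another cut less than 50 bases away, from which a read could reach them. These are called far CCGG here whatever the length of the fragment between the cuts. Whether each of these fragments was in the size-selected libraries was not known. Leaving these out gave 35.7% for the promoter in place of 34.7%, and 42.2% for the interval in place of 42.4%. Another of them, at chr17:12769788 on the minus strand, had 101, 102, 96 and 125 reads against 57, 63, 73 and 88 at chr17:12769752, and stood at 27.7%, 23.5%, 26.0% and 20%, below 50.9%, 38.1%, 30.1% and 29.5% at that neighbour. The other 4 did not stand apart in this way: their means over the mice were 47.4% at chr17:12742377, 36.2% at chr17:12769205, 42.0% at chr17:12769251 and 30.5% at chr17:12769510, within 2 points of the range of the other cytosines of their read ends.

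Common cytosines left out part of the locus. A further 44 cytosines had at least 10 reads in some mice, 28 of them in the Igf2r promoter and 12 in the rest of the Igf2r body, so that 127 were covered in at least 1 mouse. The B6 libraries were deeper, with 99215153 and 91886997 reads summed over cytosines against 60654199 and 65176203 in the Mixed mice, and 28 of the 44 were covered in no Mixed mouse. Of the promoter cytosines, a group of 8 on the minus strand at chr17:12769475-12769501 stood at 22.1% in Mixed-1, 16.2% in B6-1 and 5.63% in B6-2. A group of 9 on the plus strand at chr17:12769266-12769307 stood at 11.4% in B6-1 and 27.3% in B6-2, and 6 of them at 25.9% in Mixed-1. On the plus strand at chr17:12769841-12769860, 3 cytosines covered in B6-1 alone stood at 9.09%. A group of 6 on the minus strand at chr17:12769673-12769701 stood at 36.2% in B6-1 and 35.1% in B6-2. In the rest of the Igf2r body, 2 cytosines at chr17:12689223-12689227 stood at 100% and 86.9% in the same mice. Not all were this high. In that body, chr17:12726240 stood at 42.9% in B6-1, its only covered mouse, and chr17:12726190 stood lower. The others there stood at 55.6% to 100%. In the rest of the Airn body, chr17:12790606 stood at 33.3% in B6-1. There chr17:12790644 stood at 8.33% in B6-1 and was also low in B6-2, while chr17:12833137 stood at 65.4% and 82.4%. With all cytosines of each mouse the promoter averaged 31.3%.

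The number of reads was compared as a measure apart from methylation, although a cytosine had to have at least 10 reads in every mouse to be counted. Reads summed over the 25 cytosines of the interval, per 1000000 reads summed over all cytosines of the mouse, came to 14.9 and 12.7 in the Mixed mice and 15.2 and 15.7 in the B6 mice. The B6 mice were higher by 1.64 on this scale and by 2.58 per 1000000 reads at the common cytosines alone. Each time the exact permutation test (two-sided) gave p = 0.333, the smallest that 2 mice against 2 allow. At the promoter the share was 32.9, 28.1, 22.6 and 25.4 per 1000000, a B6 minus Mixed difference of -6.50 (exact permutation p = 0.333), and both Mixed mice were above both B6 mice. The difference at the interval rested on Mixed-2: without it the strains differed by 0.516, and without Mixed-1 by 2.76. Median coverage at the interval was 29, 35, 48 and 63 reads, so over the interval as a whole a level was known less well in the Mixed mice. On fragment 3 this did not hold. The best covered cytosine of each mouse had 30, 36, 22 and 26 reads on its plus strand, and 29, 41, 35 and 30 on its minus strand.

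Against gene starts over the genome, the Airn start had a wide range between mice for its level, which is the measure that chose it. In 2000 bp windows centred on the start, 14030 RefSeq genes had at least 10 common cytosines. The Airn window held 10 cytosines of the interval, at 46.9% and 45.6% in the Mixed mice and 26.1% and 41.2% in the B6 mice, with a range of 20.7 points. Of the 535 windows with a mean of 20 to 80%, 15 or 2.80% had a range at least that wide, and 114 or 21.3% had one at least as wide as the 10.7 points of Igf2r. The median range of these windows was 6.44 points. Windows differ in their number of cytosines and reads, which moves the range, and Airn had the fewest cytosines that the limit of 10 allows.

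The windows most like Airn, by Euclidean distance over the 4 mice in percentage points, were those of Zfp180 at 9.13, Casq2 at 9.35, Osgin1 at 9.80, Gm39337 at 9.80 and Unc13d at 10.3. Zfp180 encodes a zinc finger protein and Casq2 a calcium-binding protein of the sarcoplasmic reticulum. The Zfp180 window stood at 50.3% and 42.9% in the Mixed mice and 29.3% and 33.8% in the B6 mice, with a range of 21.0 points. Mixed-1 was the highest and B6-1 the lowest mouse in this window, as at Airn. Zfp180 was picked for the closeness of these 4 values, so a like order of the mice is part of the choice. The Igf2r window lay at a distance of 14.1 points, farther than these 5.

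Other imprinted genes were listed for comparison with no test. Of 23 found in the annotation 12 had at least 10 common cytosines, and 8 of these stood at 20 to 80%. The range over mice had a median of 7.32 points in the 8, and it was 1.74 in Magel2, 4.86 in Plagl1, 5.77 in Zrsr1, 6.60 in Nnat, 8.04 in Gnas and 17.3 in Mcts2. Peg10, a retrotransposon-derived gene needed in the placenta, and Sgce, which encodes epsilon-sarcoglycan, start back to back and share the same 12 cytosines, at 51.4% and 58.1% in the Mixed mice and 28.5% and 45.0% in the B6 mice. Their range of 29.6 points was wider than that of Airn and they were the only 2 of the 8 to exceed it. B6-1 was the lowest mouse at 4 of the 8, namely Peg10, Sgce, Mcts2 and Nnat. B6-2 was the lowest at the others, namely Gnas, Magel2, Plagl1 and Zrsr1. The B6 mean was below the Mixed mean in all 8, as at Airn and Igf2r, by -0.817 points in Zrsr1 to -18.0 points in Peg10. The median and these counts take Peg10 and Sgce as 2 genes, although their values are those of 1 window. In Zrsr1 B6-1 was instead the highest, at 45.3% against 39.5 to 43.8% in the other mice, and in Magel2 the mice ranged from 31.5% to 33.2%. The 4 others of the 12 measured, Dlk1, Grb10, Inpp5f and Rasgrf1, stood below 20%. None of the 484 cytosines of the 12 windows, with those shared by Peg10 and Sgce counted for both genes, was called in the strain comparison. As only 0.00658% of all common cytosines were called, nothing is read from this count.

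**Figure D5:**
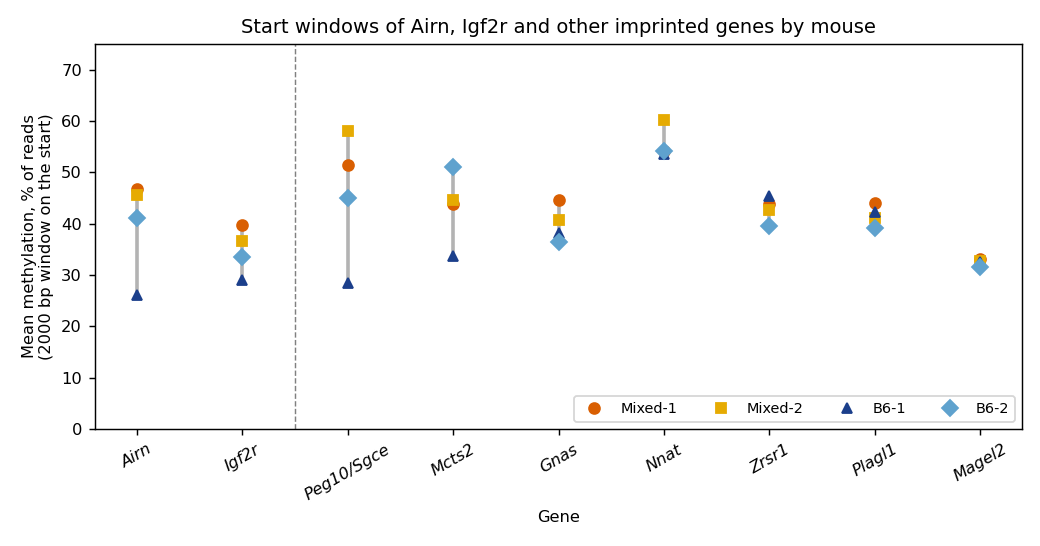
Mean methylation (% of reads) in the 2000 bp window on the start of Airn, Igf2r and the imprinted genes with a mean of 20 to 80%, with Peg10 and Sgce drawn once. Each symbol is 1 mouse and the grey line spans the 4 mice; the range is 20.7 points at Airn, 29.6 at Peg10/Sgce and 1.74 at Magel2.

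Around the cluster the start windows did not share the intermediate level. Of 11 neighbouring genes 5 had at least 10 common cytosines. Slc22a3, an organic cation transporter, stood at 6.15% and 8.4% in the Mixed mice and 7.04% and 13.2% in the B6 mice. Pnldc1, a ribonuclease that trims piRNAs in germ cells, stood between 78.5% and 81.7%. Tcp1, a chaperonin subunit, Wtap, a subunit of the RNA methylation complex, and Sod2, the mitochondrial superoxide dismutase, stood at 0.159%, 0.0893% and 2.46% on average. None of their 293 cytosines was called, against 0.00658% of all common cytosines. Genes of the ligands, receptors and enzymes that work with Igf2r were listed too, and 11 of 17 had enough cytosines. Among them 10 stood below 20%, including Igf1r at 0.475% and Insr at 0.121%, the receptors for Igf1 and insulin, M6pr at 0.150%, the cation-dependent mannose 6-phosphate receptor, and Gnptab at 0.0914%, whose product makes the mannose 6-phosphate tag. Igfbp4, a binding protein for these growth factors, stood at 38.8% and 30.9% in the Mixed mice and 35.3% and 33.1% in the B6 mice. None of the 803 cytosines of these 11 windows was called. With so small a share called over all common cytosines, nothing is read from either count.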

How the data were processed

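Livers of 4 mice were measured, and each mouse was 1 sample, with its strain taken from the labels. Per the labels the DNA was digested with MspI, and the study also describes ERRBS as a method with TaqαI beside MspI. Each common cytosine of the locus lay within reach of an MspI site. The authors treated the DNA with bisulfite and sequenced single-end reads of 50 cycles. The study's methods name BSMAP and the submitters' processing notes name Bismark and SAMtools, with mm10 as the build. The authors deposited, for each CpG cytosine and strand with at least 10 reads, the coverage as a count of reads and the percent of reads that were C and T, with no normalization.

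Methylated reads were computed as coverage times percent. Coverage had a mean of 44.2, 49.0, 63.7 and 60.1 reads over the cytosines of the Mixed and then the B6 mice. Sequence and annotation came from RefSeq GRCm38.p6, where all members fell on a CpG. A cytosine was assigned to the nearest MspI site within 50 bases from which a read could reach it. Intervals were 95% Wilson intervals (Python 3.11.15, scipy 1.17.1). The strain model was logistic, with overdispersion moderated by limma 3.58.1 (R 4.3.3) over all common cytosines and kept at 1 or above. On simulated reads for Mixed against B6 with 200 of 100000 cytosines changed by 50 points, it recovered 38% with no false call, while 4.06% of unchanged cytosines at 20 to 80% had p under 0.05. The criterion for passing this self-test was changed to calibration after that recovery was seen.

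Regions were assigned in the order of Airn interval, Igf2r promoter, overlap, Igf2r body and Airn body. Named cytosines were the 3 with the largest and smallest range in the interval, and those at its borders. Named genes were listed ones with at least 10 common cytosines in their window, and the 5 nearest to Airn. The members, lists and tests were chosen with earlier results of these data known. Alternatives were a minimum of 20 reads, merged strands, pooled reads, each strand alone, other windows and thresholds, a coverage ceiling, Fisher's exact test, the replicate number as a block, and leaving out each mouse. The share of reads was also taken over common cytosines alone. Leaving out cytosines in a far CCGG, weighting read ends equally and a moderation prior from all common cytosines were added after seeing the data. RNA sequencing was not used here.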

Additional observations from a re-analysis of the deposited data

How the results depend on the processing

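A value was counted as moved when it changed by more than the SD between mice of a strain, 3.42 points at the Airn interval and 2.66 at the Igf2r promoter. The level of the interval did not move under any alternative tried. The level of the promoter moved to 31.3% with all cytosines of each mouse. The range of 16.8 points at the interval moved to 21.1 with reads pooled and to 20.7 with the window on the Airn start, and was 11.7 to 16.8 when 1 mouse was left out (12.3 without Mixed-2, 11.7 without B6-1). The strain difference of -12.0 points was -17.7 on the plus strand alone and -6.77 on the minus strand. The mean difference between the interval and the promoter stayed positive, with exact sign-flip p of 0.12 to 0.25, but that of B6-1 turned negative with reads pooled and with the window on the Airn start. The count of cytosines with a range of at least 25 points was 28 of 83, 17 of 65 (26.2%) with strands merged, and 14 to 25 when 1 mouse was left out (15 without Mixed-1, 25 without Mixed-2, 16 without B6-1, 14 without B6-2). The cause of the fall with strands merged was not tested, and the range over fewer mice can only shrink. Strain calls at the locus were 0 under all alternatives but Fisher's exact test on pooled reads, which gave 1, with 27 at unadjusted p under 0.05. The replicate numbers gave no sign of pairing, with a correlation of 0.00209 between same-numbered mice over 148813 cytosines. The replicate block left the strain difference at -12.0 points by construction and called 0 at the locus, with 16 at unadjusted p under 0.05. For the block and for Fisher's exact test, the share of all common cytosines at that unadjusted p is not given here. Over all common cytosines the strain model called 84, against 325 with the replicate block, 0 with the prior from all common cytosines, 1612 with Fisher's exact test, 58 with a coverage ceiling, and 288 and 272 without Mixed-1 and Mixed-2, and 0 without either B6 mouse. Leaving out a mouse leaves its strain with 1, which is assumed to vary like the other.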
